A study of Rattus norvegicus with 10 samples.

Results

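Peritubular myoid cells are flat, contractile cells that wrap each seminiferous tubule of the testis, and their contraction moves sperm and fluid along it. They contract as smooth muscle does: calcium activates myosin light chain kinase, which phosphorylates the regulatory light chain of myosin, and myosin then pulls on filaments of smooth muscle actin that are held in place by actin-binding proteins and by intermediate filaments of desmin. The same genes are used by the smooth muscle of blood vessels and in part by pericytes, so in a whole testis their RNA is not that of 1 cell type alone. The 10 genes followed here are the actins Acta2 and Actg2, the myosin heavy chain Myh11, the regulatory light chain Myl9, its kinase Mylk, the actin-binding proteins Cnn1, Tagln, Smtn and Lmod1, and Des. They were chosen by name, as the contractile genes of peritubular myoid cells, and found on the array through the RefSeq transcript of each probe. The array named 15154 genes, and these 10 had 15 of its 30367 probes.

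RNA was measured in whole testes of rats at postnatal day 6 with 1-colour Agilent arrays, 5 for fathers whose code holds the letter C and 5 for fathers whose code holds a T. All pups came from Brown Norway males mated with Sprague Dawley females. Their fathers were given saline or BEP for 9 weeks and then recovered for 9 weeks. BEP is the usual short name of a cancer chemotherapy of bleomycin, etoposide and cisplatin, which the labels do not spell out. C is read here as saline and T as BEP, an inference that no label states. Each array carries a different sire code within its group, and the labels do not give the number of pups behind an array, so the p-values measure the spread between these 10 samples. The arrays are called C1 to C5 and T1 to T5. Slide 1 held C1, C2, C3, T1 and T2, and slide 2 held C4, C5, T3, T4 and T5.

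The unscaled 75th percentile of the signal lay between 1525 units (C1, the lowest) and 2686 (C3), 70.4% to 74.8% of the probes of an array were well above background, and no spot was saturated. All values below are levels on a log2 scale, relative to the 75th percentile of the same array, so that 0 is the level of that percentile and 1 unit is a 2-fold step. A probe was tested if it was well above background on at least 5 of the 10 arrays, which 21892 probes (72.1%) were. All 15 probes of the contractile genes were tested, and each was well above background on all 10 arrays. Of the genes, 5 have 1 probe and 5 have a pair, here called probe A, the one with the higher mean, and probe B. Levels of different probes cannot be set against each other, because probes bind with different strength. In whole testis, fewer cells of a type and less RNA per cell cannot be told apart.

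None of the 15 probes passed the test of T against C. Of the 21892 probes tested, 0% were called at an adjusted p under 0.05 (limma with Benjamini-Hochberg adjustment), 3.97% had an unadjusted p under 0.05, and no adjusted p was below 0.9985. None of the 15 had an unadjusted p under 0.05, and the lowest was 0.147. On every one of the 15 probes the C and T arrays overlapped, against 0.722% of all probes on which they did not. Of the 15 probes, 11 had a lower mean in T and 4 a higher one, and 58.5% of all probes lay lower in T. By gene, with the brighter probe standing for each, 7 of 10 lay lower and 3 higher, against 53.9% of the 11561 tested genes on the lower side. The median difference over the 10 genes was -0.048, beside -0.009 over all tested genes. Without C1 it was -0.020. The difference was then -0.024 for Acta2, -0.026 for Myh11 probe A, -0.057 for Cnn1, -0.039 for Tagln and -0.010 for Des. Each is nearer to 0 than the value over all 10 arrays given below. C1 held the highest value of each of these genes, so leaving it out had to raise the difference. The brighter probes of Actg2 and Mylk moved away from 0, to 0.061 and 0.040, and Lmod1 probe B changed sign, to 0.070.

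**Figure D1:**
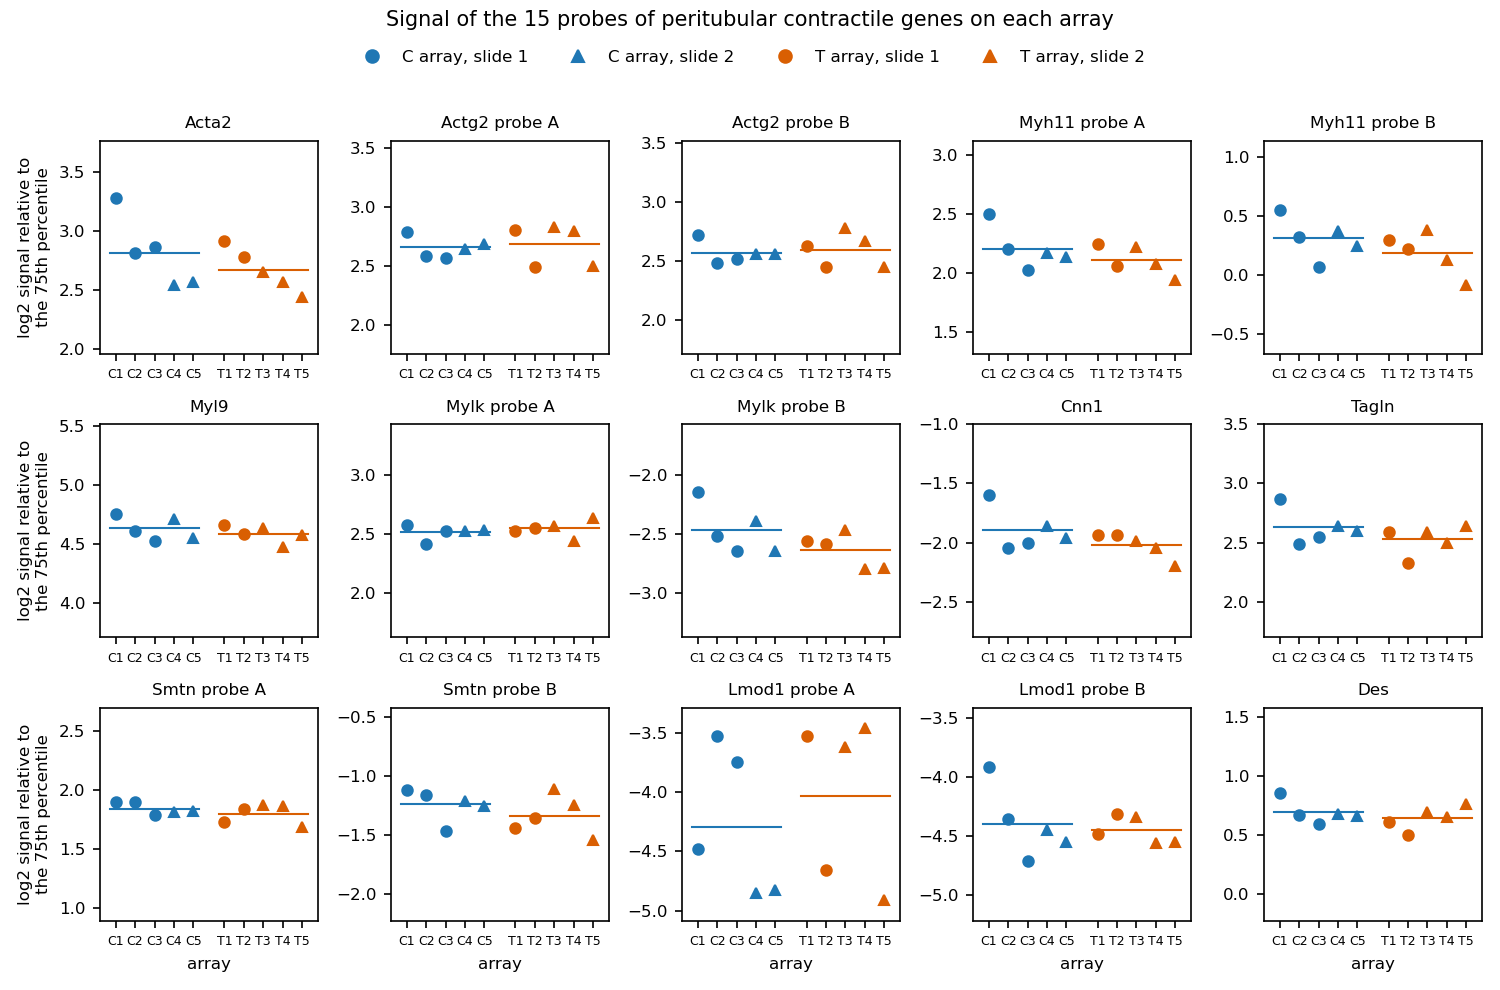
Level of the 15 probes on each of the 10 arrays, as log2 signal relative to the 75th percentile of the array (y axis, of equal span in each panel). Blue marks are C arrays and orange marks T arrays, circles lie on slide 1 and triangles on slide 2, and each line is the mean of 5 arrays. C1 is the highest mark on 9 of the 15 probes, the C and T marks overlap in each panel, and Lmod1 probe A spreads most.

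Acta2 encodes smooth muscle alpha-actin, the usual marker of peritubular myoid cells. Its level was 3.28, 2.81, 2.86, 2.54 and 2.57 on C1 to C5 and 2.91, 2.78, 2.65, 2.57 and 2.44 on T1 to T5. C1 stood above the others, and apart from it the groups covered much the same range. The means were 2.81 ± 0.29 (SD, n = 5) in C and 2.67 ± 0.18 in T, a difference of -0.14 (SE 0.142, adjusted p = 0.9985 by limma, 95% interval -0.45 to 0.17).

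The 250 bases before the start of Acta2 and of Cnn1 are shown because both genes are known targets of serum response factor, which binds the CArG box, and because the first holds near matches to that box and the second holds none. The sequences are from RefSeq on GRCr8, 5′ to 3′ on the strand of the gene, and capitals mark stretches that differ from the CArG box by 1 letter. Acta2 lies on the minus strand at chr1:241172504-241172753, and Cnn1 on the plus strand at chr8:28908187-28908436.
Acta2: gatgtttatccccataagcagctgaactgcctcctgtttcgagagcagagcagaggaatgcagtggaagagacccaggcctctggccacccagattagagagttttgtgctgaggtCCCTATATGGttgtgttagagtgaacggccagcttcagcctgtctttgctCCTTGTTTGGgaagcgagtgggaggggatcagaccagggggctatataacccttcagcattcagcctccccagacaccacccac
Cnn1: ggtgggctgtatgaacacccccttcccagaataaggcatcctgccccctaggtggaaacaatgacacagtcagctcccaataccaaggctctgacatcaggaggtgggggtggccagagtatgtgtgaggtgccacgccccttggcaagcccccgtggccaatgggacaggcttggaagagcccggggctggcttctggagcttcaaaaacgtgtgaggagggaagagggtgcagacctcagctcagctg
The stretches in Acta2 begin 134 and 84 bases before the start, and the Cnn1 sequence holds none. The promoters of Acta2, Actg2, Mylk, Cnn1, Smtn and Des were searched on both strands for the exact CArG box, and 0 of these 6 held it, as did 1.5% of 33469 rat promoters. With 1 letter different, an alternative chosen after the exact search, 2 of the 6 held it (Acta2 and Smtn), against 18.7% of all promoters. A match is only a description of the letters. Promoters were matched by symbol for 6 of the 10 genes, and not for Myh11, Tagln, Lmod1 and Myl9.

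Actg2 encodes the gamma-actin of visceral smooth muscle. Its probe A stood at 2.79, 2.59, 2.57, 2.65 and 2.69 in C and at 2.81, 2.49, 2.83, 2.80 and 2.50 in T. The T arrays lay both above and below the C arrays. The difference was 0.03 (SE 0.089, interval -0.17 to 0.22), and probe B, at 2.45 to 2.78 over the 10 arrays, differed by 0.02 (SE 0.08). Its probe A difference was -0.035 after another background correction (normexp) and -0.002 within slide 1. The actin genes are closely alike in their coding sequence, and the sequences of the probes were not used here, so the values of Acta2 and Actg2 may hold signal from other actins.

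Myh11 encodes the smooth muscle myosin heavy chain, the motor that pulls on actin. Probe A stood at 2.50, 2.21, 2.03, 2.17 and 2.14 in C and at 2.25, 2.06, 2.22, 2.08 and 1.94 in T. The highest array was C1 and the lowest T5. The means were 2.21 ± 0.18 in C and 2.11 ± 0.13 in T, a difference of -0.10 (SE 0.096, interval -0.31 to 0.11). Probe B gave -0.12 (SE 0.107), and the probes followed each other over the arrays with r = 0.93.

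Myl9 encodes the regulatory light chain that the kinase phosphorylates. It stood at 4.75, 4.61, 4.52, 4.71 and 4.55 in C and at 4.66, 4.58, 4.63, 4.47 and 4.57 in T. Its SD over the 10 arrays was lower than that of most tested probes, at the percentile 12.2 of them. The difference was -0.05 (SE 0.066, interval -0.19 to 0.10).

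Mylk encodes the kinase itself, and also longer products outside smooth muscle. Probe A stood at 2.58, 2.42, 2.53, 2.53 and 2.54 in C and at 2.53, 2.55, 2.57, 2.44 and 2.64 in T. Only 3.7% of tested probes varied less between the arrays, and the difference was 0.03 (SE 0.058, interval -0.10 to 0.15). Probe B, between -2.80 and -2.15, differed by -0.17 (SE 0.109, interval -0.41 to 0.07) with an unadjusted p of 0.147, the lowest of the 15, and an adjusted p of 0.9985 (limma). The probes of Mylk did not follow each other (r = 0.12), so they may not report the same transcripts.

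Cnn1, or calponin, binds actin and slows the myosin motor. It stood at -1.60, -2.05, -2.0, -1.86 and -1.96 in C and at -1.94, -1.94, -1.99, -2.05 and -2.20 in T. C1 was again the highest and T5 the lowest. The difference was -0.13 (SE 0.093, interval -0.34 to 0.08).

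Tagln, or transgelin, crosslinks actin filaments. It stood at 2.87, 2.49, 2.55, 2.64 and 2.60 in C and at 2.59, 2.33, 2.59, 2.50 and 2.64 in T. Apart from C1 at the top and T2 at the bottom, the arrays lay between 2.49 and 2.64. The difference was -0.10 (SE 0.087, interval -0.29 to 0.09).

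Smtn, or smoothelin, marks contractile smooth muscle. Its probe A lay between 1.69 and 1.90 on the 10 arrays, and its SD was at the percentile 6.0 of all tested probes. The groups differed by -0.04 (SE 0.06), and probe B, between -1.54 and -1.11, by -0.10 (SE 0.096). The probes followed each other with r = 0.88.

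Des encodes desmin, the intermediate filament of muscle. It stood at 0.85, 0.67, 0.59, 0.68 and 0.66 in C and at 0.61, 0.50, 0.69, 0.65 and 0.76 in T. C1 was the highest and T2 the lowest. The difference was -0.05 (SE 0.07, interval -0.20 to 0.10), and within slide 2 it was 0.03.

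Lmod1, or leiomodin 1, starts new actin filaments in smooth muscle. Its probe A stood at -4.48, -3.52, -3.74, -4.85 and -4.83 in C and at -3.52, -4.66, -3.62, -3.46 and -4.91 in T. The arrays fell into separate levels: 5 (T5, C4, C5, T2 and C1) lay between -4.91 and -4.48, and 5 (C3, T3, C2, T1 and T4) between -3.74 and -3.46. Both levels held C and T arrays and arrays of both slides. The gap of 0.74 is a 1.67-fold step, and its SD of 0.634 was at the percentile 98.0 of all tested probes. A gap of at least 0.5 with 4 to 6 arrays below it was present in 391 probes (1.79%). Probe B stood at -3.92, -4.36, -4.71, -4.45 and -4.55 in C and at -4.48, -4.31, -4.34, -4.56 and -4.55 in T. It did not show these levels, and the probes did not follow each other (r = -0.16). The group difference was 0.25 (SE 0.365) for probe A, with a 95% interval of -0.55 to 1.06, and -0.05 (SE 0.132) for probe B. For probe A it was -0.17 within slide 1 and 0.85 within slide 2, and the test of that difference between the slides gave 1.02 with an adjusted p of 0.992 (limma).

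**Figure D2:**
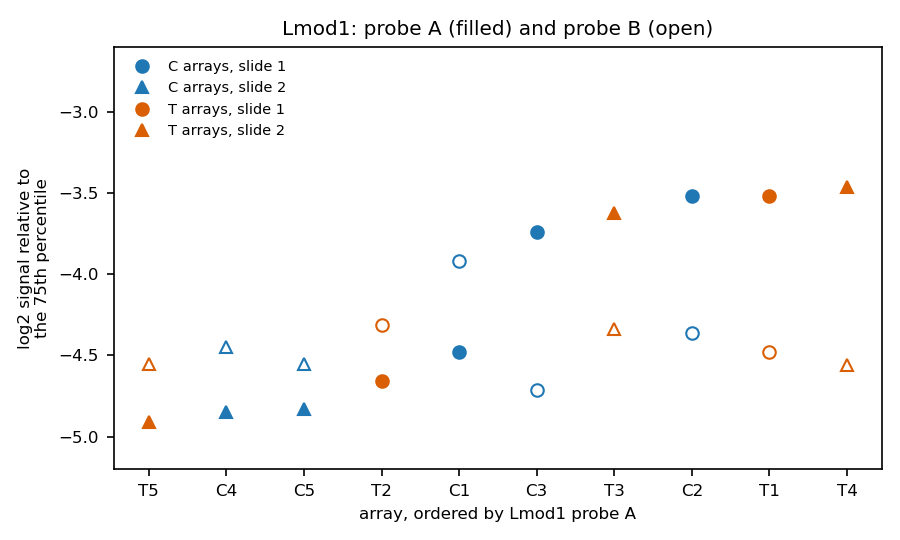
Level of the probes of Lmod1 (y axis, log2 signal relative to the 75th percentile of the array) on the 10 arrays, ordered along the x axis by probe A. Filled marks are probe A and open marks probe B, with colours and shapes as for group and slide in the legend. Probe A steps by 0.74 between C1 and C3, and probe B has no such step.

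The size of difference that these arrays leave room for was under 1.5-fold for most of the probes. The 95% interval of the difference lay within 1.5-fold in either direction for 14 of the 15 probes, as it did for 86.8% of all tested probes. Lmod1 probe A was the exception, with an interval from 0.68 to 2.08 as a fold of T over C. The median SD over the 10 arrays was 0.153 for the 15 probes and 0.163 for all tested probes.

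**Figure D3:**
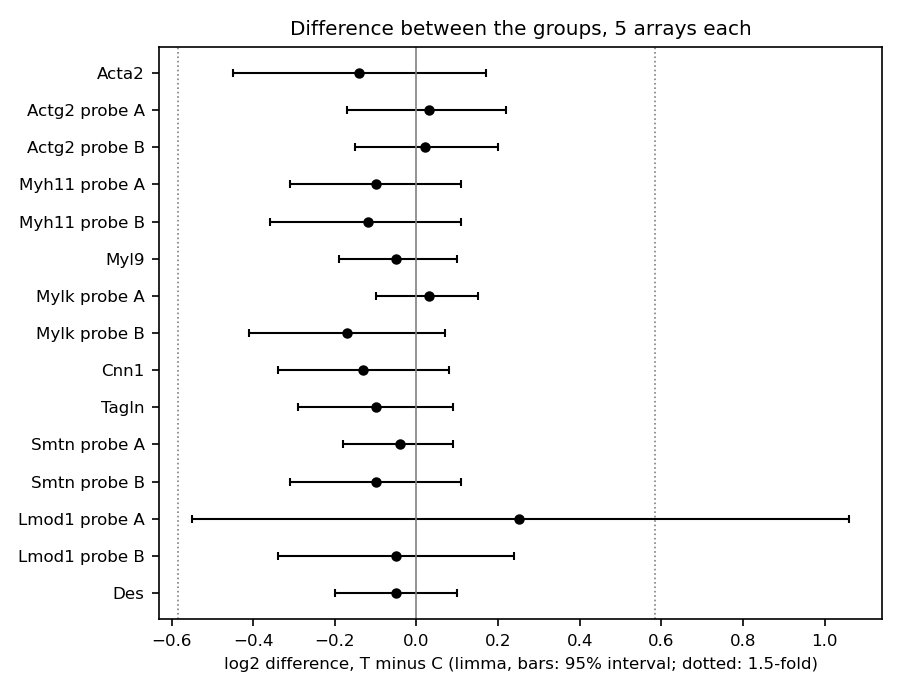
Difference T minus C on the log2 scale (x axis) for each of the 15 probes (y axis), with 5 arrays a group. Points are the limma estimates, bars their 95% intervals, and the dotted lines mark 1.5-fold. All bars include 0, and that of Lmod1 probe A alone crosses a dotted line.

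The array C1 was high in much of this gene group. It held the highest value for 6 of the 10 genes and 9 of the 15 probes, where it held the highest value for 28.8% of all tested probes. The median deviation of the 10 genes on C1 from their own means was 0.167, beside 0.09 for all tested probes, and C1 was also the array with the lowest 75th percentile of signal. On C1 the median deviation was 0.33 for 7 tested markers of Leydig cells, 0.33 for 5 of mesothelium and capsule, 0.12 for 8 of pericytes and -0.05 for 9 of Sertoli cells. It was 0.12 for 23 other genes of the smooth muscle cytoskeleton and -0.04 for 17 that control contraction. The remaining lists read below lay between 0.0 (regulators of transcription) and 0.09 (endothelial markers). T5 held the lowest value for 5 genes and 7 probes, against 15.1% of all tested probes, with a median deviation of -0.155. The part of depth or of other cells in these values was not tested.

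The levels of the 10 genes were set against each other across the 10 arrays, and no pair with Acta2, Myh11 or Tagln passed the adjustment over all probes. Over their 45 pairs, 35 had a positive r, with a median of 0.34, and the median r of the 10 genes with the 11547 other tested genes was 0.05. In 6 pairs (13.3%) r was at least 0.7, beside 4.26% of pairs of a member with another gene. Without C1 the median over the pairs was 0.13 and that with the other genes 0.02. Tagln with Des, at 0.80, was then the only pair at 0.7 or above. The share of pairs with other genes was not counted without C1. These values describe arrays that share slides, and genes on an array share its scaling.

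Des and Tagln were the closest pair, with r = 0.90 over 10 arrays (permutation p = 0.00243, adjusted p = 0.706 over 21869 probes) and rho = 0.79 (permutation p = 0.00839, adjusted 0.851). It was 0.80 without C1, 0.91 with slide means removed, and 0.47 without C1 and T2, the arrays farthest from the median of Tagln. Myh11 and Cnn1 followed with r = 0.85 (permutation p = 0.00534, adjusted p = 0.126), with rho = 0.56 (permutation p = 0.0957) and r = 0.60 without C1. Without C1 and T5, the arrays farthest from the median of Myh11, that r was 0.16. The relation was thus not seen without those arrays. Leaving them out also narrows the range of Myh11, which by itself tends to lower r. Myh11 with Myl9 gave 0.76 (permutation p = 0.0103, adjusted p = 0.148), rho = 0.77 (permutation p = 0.0129), and 0.70 without C1 and T5. With Myh11, too, 0 of the other 9 genes passed the adjustment, and 0.064% of all probes did with a positive sign. With Tagln, 0% of all probes passed in either sign, so the adjustment does not set its pairs apart from other genes.

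With Acta2, Myh11 had r = 0.76 (permutation p = 0.0148, adjusted p = 0.0905) and rho = 0.56 (permutation p = 0.0963). Cnn1 had r = 0.76 (permutation p = 0.0209, adjusted p = 0.111) and rho = 0.43 (permutation p = 0.217). Neither passed the adjustment, and 0 of the other 9 genes did, while 9.19% of all probes were called with Acta2 in either sign and 7.76% with a positive one. Without C1 and T5, the arrays farthest from the median of Acta2, r was 0.07 for Myh11 and -0.17 for Cnn1. These relations were thus not seen without those arrays. Leaving them out also narrows the range of Acta2, which by itself tends to lower r. With slide means removed r was 0.88 for Myh11, 0.84 for Cnn1, 0.81 for Tagln and 0.73 for Des. Over the 10 arrays as measured, Tagln had 0.39 and Des 0.21 with Acta2. Without C1 they had -0.44 and -0.70. The kinase Mylk (probe A) had -0.04 with Acta2, and its lowest value in the group was -0.63 with Lmod1 probe A. Probe B of Mylk went another way, with 0.71 with Acta2 (permutation p = 0.0268, adjusted p = 0.128) and 0.88 with Myh11 (permutation p = 0.00155, adjusted p = 0.0947). Without C1 and T5 these were 0.02 and 0.58. Lmod1 probe B had 0.67 with Acta2 (permutation p = 0.0474, adjusted p = 0.178) and 0.81 with Myh11 (permutation p = 0.0111, adjusted p = 0.152), and -0.02 and 0.47 without C1 and T5. The relation of both genes to the others thus differs with the probe that is read. After quantile scaling Myl9, at 0.51 with Acta2 as measured, stood at -0.53.

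**Figure D4:**
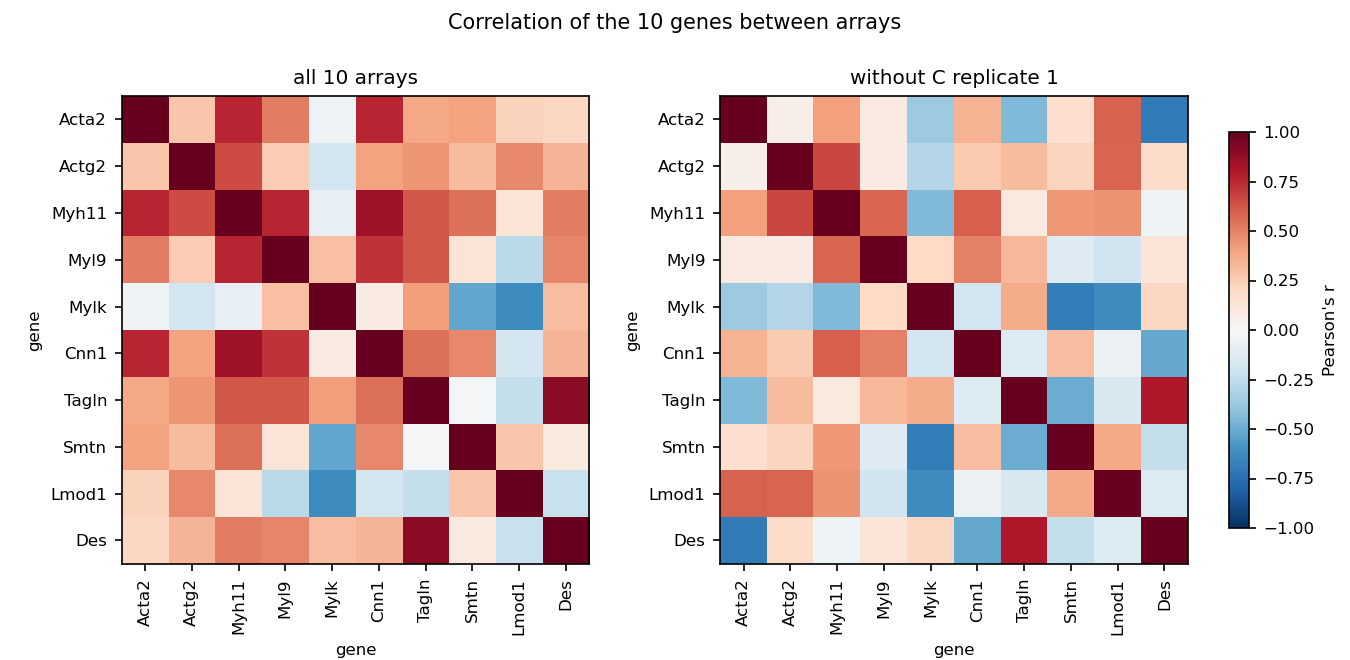
Pearson's r between the 10 genes over the arrays, each gene by its brighter probe, for all 10 arrays (left) and without C1 (right). Colour runs from -1 (blue) to 1 (red), and the diagonal is each gene with itself. The median over the 45 pairs is 0.34 on the left and 0.13 on the right, and Des with Tagln stays at 0.80 on the right.

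Of the 15 probes, 1 passed the test between the slides, that of Acta2. Its mean was 2.92 ± 0.20 (SD, n = 5) on slide 1 and 2.56 ± 0.08 on slide 2, and no array of slide 2 reached the lowest of slide 1, as on 11.3% of all probes the slides did not overlap. The difference, with the group as a term, was -0.36 (SE 0.097, adjusted p = 0.0479 by limma), a comparison added after the data were seen. Of all probes, 9.79% were called between the slides, 8.63% as lower on slide 2, so 1 of 15 is near the background. The other 14 had unadjusted p-values above 0.05, where 24.1% of all probes lay under it. The call was at the edge of the threshold: without a filter on dim probes the adjusted p was 0.0695, and leaving out 1 array gave differences from -0.396 to -0.282 with 8 of the 10 adjusted p-values above the threshold. With slide as a block, the difference T minus C of Acta2 was -0.07. Slide here is what the file headers give, and whether the arrays differ in anything else was not given in the sources used here.

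Of the listed genes outside the 10, 6 passed the test between the slides, no more than the 9.79% of all probes. They were 1 of 17 tested genes that control contraction, 1 of 15 regulators of transcription and 1 of 8 pericyte genes. The others were 1 of 11 skeletal muscle, 1 of 14 duct epithelium and 1 of 5 mesothelium and capsule genes. No gene was called of 23 of the cytoskeleton, 13 receptors, 9 endothelial, 9 Sertoli cell, 7 Leydig cell and 7 fibroblast genes. These 6 were picked out after their values were seen. Acta1, the skeletal muscle alpha-actin and a close relative of Acta2, stood at -2.11, -2.35, -2.55, -3.46 and -3.82 in C and at -2.04, -2.39, -3.65, -3.78 and -3.90 in T. All slide 1 arrays lay above all slide 2 arrays, with a difference of -1.44 (adjusted p = 4.97e-05, limma). Krt5, a keratin of basal epithelia, differed by -0.62 (adjusted p = 8.58e-05, limma) and Cox4i2, a pericyte marker, by -0.68 (adjusted p = 9.48e-05, limma). Kcnma1, the large-conductance potassium channel of smooth muscle, differed by -0.77 (adjusted p = 0.0479, limma). Higher on slide 2 were Gli1, a target of hedgehog signals, by 0.26 (adjusted p = 0.0393, limma) and Emx2, of the duct epithelium list, by 0.37 (adjusted p = 0.0271, limma), where 1.16% of all probes were called higher. Of the marker lists, 1 of 11 tested skeletal muscle genes, 1 of 8 pericyte genes, 1 of 5 mesothelium and capsule genes and 0 of 9 endothelial genes were called lower on slide 2, against 8.63% of all probes. Of the 8 pericyte genes 5 lay higher on slide 2 and 3 lower, and of the 11 skeletal muscle genes 5 and 6. Summed over a list, where the brightest probes weigh most, the skeletal muscle genes lay between -0.03 and 0.27 on slide 1 and between -0.23 and -0.10 on slide 2. The pericyte genes, summed, lay between 3.11 and 3.31 on slide 1 and between 2.82 and 3.09 on slide 2. Cox4i2, called above, is the brightest of them on every array. These lists were picked out after their values were seen. The sums of every other list overlapped between the slides, such as the contractile genes at 5.83 to 6.10 on slide 1 and 5.81 to 5.92 on slide 2. The part of pericyte and skeletal muscle genes in the Acta2 difference was not tested.

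In the wider machinery of smooth muscle, too, 0 genes of any list passed the adjustment between T and C. Of 23 tested genes of the cytoskeleton of smooth muscle (28 listed), 8 lay higher in T and 15 lower, with a median difference of -0.054. Those with the smallest p were Csrp1, a LIM protein of smooth muscle, at -0.11 (SE 0.055), Lpp, an adhesion protein, at -0.29 (SE 0.161), and the actinin Actn1 at -0.14 (SE 0.091). The signal of Lpp passed as well above background on 5 C arrays and 2 T arrays. The tropomyosins Tpm1 and Tpm2 differed by -0.04 (SE 0.069) and -0.08 (SE 0.063), and caldesmon, Cald1, by -0.05 (SE 0.083).

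Of 17 tested genes that control contraction (20 listed), 8 lay higher and 9 lower, with a median of -0.028. Pde5a, which breaks down cyclic GMP, differed by -0.22 (SE 0.093) and the small GTPase Rhoa by -0.14 (SE 0.063). Their unadjusted p-values, 0.0391 and 0.048 by limma, are within what 3.97% of all probes reached. Ppp1r14a, an inhibitor of myosin phosphatase, differed by 0.15 (SE 0.099).

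Of 13 tested receptors (15 listed), 9 lay higher and 4 lower, with a median of 0.047. The endothelin receptor Ednra differed by 0.07 (SE 0.059), the growth factor receptors Pdgfra and Pdgfrb by 0.04 (SE 0.078) and 0.13 (SE 0.078), and the hedgehog receptor Ptch1 by -0.09 (SE 0.1). The adenosine receptor Adora1 differed by 0.24 (SE 0.186), with T4 far above the other T arrays. Of 15 tested regulators of smooth muscle transcription (20 listed), 9 lay higher and 6 lower, with a median of 0.01. Serum response factor, Srf, differed by 0.11 (SE 0.055), its partner Myocd by -0.16 (SE 0.136), Gata6 by -0.18 (SE 0.083), Tgfb2 by 0.16 (SE 0.09) and Gli1 by -0.01 (SE 0.102). Mrtfa, Mrtfb and Oxtr were not tested here.

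Markers of the other cell types with contractile genes were read beside them. Of 8 pericyte markers, 4 lay higher in T and 4 lower, and all were well above background on all 10 arrays. Abcc9, a subunit of an ATP-sensitive potassium channel, stood at -2.20, -2.27, -2.08, -2.17 and -2.29 in C and at -2.68, -2.72, -2.61, -2.48 and -2.47 in T. All T arrays lay below all C arrays, as on 0.53% of all probes, with a difference of -0.39 (SE 0.071). Its unadjusted p was 0.000228 and its adjusted p 0.9985 (limma), and it was named for the smallest p of its list. Kcnj8, the pore of the same channel, differed by 0.19 (SE 0.129), and Cspg4 by 0.09 (SE 0.08). Of 9 tested endothelial markers 8 lay higher in T, with a median of 0.087. Those with the smallest p were Pecam1 at 0.21 (SE 0.082), Flt1 at 0.18 (SE 0.078) and Kdr at 0.15 (SE 0.082). Of 11 skeletal muscle markers 7 lay higher, with a median of 0.114, led by Actn2 at 0.33 (SE 0.103), Myl1 at 0.28 (SE 0.134) and Myh8 at 0.24 (SE 0.109). Of these 6 genes, Actn2, Pecam1 and Flt1 had unadjusted p-values of 0.00944, 0.0277 and 0.0384, and the adjusted p was 0.9985 for each (limma). Of 9 Sertoli cell markers 3 lay higher, of 7 Leydig cell markers 5, of 7 fibroblast markers 6, of 14 duct epithelium markers 11 and of 5 mesothelium and capsule markers 0. The genes with the smallest p in these lists were Amh (-0.28), Aard (-0.09) and Cst12 (0.34) for Sertoli cells and Hsd11b1 (0.19), Insl3 (0.35) and Hsd3b1 (0.22) for Leydig cells. They were Dcn (0.13), Lum (0.10) and Tcf21 (0.08) for fibroblasts, Lhx1 (-0.63), Pax8 (0.32) and Cdh1 (-0.14) for duct epithelium, and Krt5 (-0.15), Msln (-0.07) and Gpm6a (-0.03) for mesothelium and capsule, each as the log2 difference T minus C. Of these 15 genes Hsd11b1 alone had an unadjusted p under 0.05, at 0.0459, with an adjusted p of 0.9985 (limma). The signal of Lhx1 passed as well above background on 4 C arrays and 2 T arrays, and that of Myl1 on 3 C arrays and 3 T arrays.

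The genes whose level over the 10 arrays was most like the mean deviation of the 10 genes, by Pearson's r, were A3galt2 (0.918), Klf2 (0.883), Usp3 (0.878), St3gal1 (0.874), Them6 (0.872), Rnf135 (0.869), Uqcrq (0.859), Cbx8 (0.854), Smug1 (0.852) and Atoh7 (0.85). Lmod1 probe A, with its wide spread, weighs heavily in that mean. With Lmod1 left out, as chosen after the data were seen, the closest genes were Gyg1 (0.975), Fto (0.957), Septin5 (0.952) and Keap1 (0.952). Of the first 10, 0 were shared with the list above. That second mean stood at 0.233 on C1 and between -0.093 and 0.037 on the other arrays, so it ranks genes largely by their level on C1. The ranking was not repeated without C1. Both lists are the top of 11547 genes ranked over 10 arrays.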

How the data were processed

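Per the file headers, the deposited spot intensities are those of Agilent Feature Extraction version 10.7.3.1, given as 10.7 by the submitters' processing notes. The program subtracted the background and corrected trends across each array. They were not scaled between arrays. The authors' deposited table holds log2 values of the same arrays. Set against the scanner values, its columns had r of 0.9978 to 0.9987 and slopes of 0.994 to 1.002 over 21193 probes, so the scale is log2, the centring is by probe and a brighter spot has a higher value. The scaling between arrays is not known. Its column medians were 0.0288, 1e-04, -0.0166, 0.0202 and -0.0089 for C1 to C5 and 0.0032, 0.0037, -0.0026, -0.0169 and -0.0023 for T1 to T5. It served as an alternative.

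Here the processed signal was put on a log2 scale and each array's 75th percentile over its 58717 non-control spots was subtracted. Outlier-flagged spots (494 to 745 an array) were left out, and spots of a probe were averaged. Probes well above background on at least 5 arrays were fitted with limma 3.58.1 in R 4.3.3, on all 10 arrays with no covariate, two-sided, and p-values were adjusted by Benjamini and Hochberg over the 21892 tested probes. The fit was tested on simulated data. Correlations had two-sided permutation tests of 100000 resamples. The probe with the highest mean stood for a gene. Of 30367 probes, 17998 had a symbol by RefSeq transcript and 12369 had none. Named were the members, the 10 genes most like their mean, up to 3 genes with the smallest p of each list and a fixed panel, of which 1 gene is not reported here; genes named after their values were seen are marked as such. The members and lists were chosen with earlier results of these data known. Replicate numbers follow the order of the samples, except that sire numbers come from the codes. Alternatives were the background correction (normexp, offset 50, on the median spot signal), scaling, filters, flagged spots, slide, sire number, the last digit of the sire code, variance model, array weights, the authors' table and omitting each array in turn. The precision is limited by the number of arrays.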

Additional observations from a re-analysis of the deposited data

Results flagged for a closer look

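In the group of T arrays, the adenosine receptor Adora1 stood at -2.30 on T4, far above the other T arrays, which lay between -3.36 and -3.23. In the group of C arrays, the channel subunit Kcnj8 stood at 1.07 on C4, above the others at 0.53 to 0.62. Among the T arrays it reached similar levels, 1.17 on T5 and 1.0 on T1. Both were picked out because the gap of 1 array to its nearest neighbour took most of the range of the group (0.883 and 0.835 of it, where 0.71 is the limit for 5 values). Of 116 groups of arrays checked, over 58 probes, these 2 stood out. Chance alone gives about 1 in 20. None of the 15 probes of the contractile genes was among them.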

How the results depend on the processing

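The count of probes called between T and C was 0 in the 24 alternative settings, with 481 to 1151 at an unadjusted p under 0.05 and a lowest adjusted p of 0.1695 (limma), and none of the 15 member probes had an unadjusted p under 0.05 in any of them. The median difference over the 10 genes ran from -0.082 (within slide 1) to 0.002 with the sire number as a replicate block, over the 3 numbers found in both groups. The deviations of same-numbered arrays had r of -0.512 (C5 and T1, on different slides), 0.282 (C2 and T2, both on slide 1) and 0.194 (C4 and T3, both on slide 2). Whether these arrays share more than a number was not tested. Of the differences T minus C that changed sign, those under the replicate block were Acta2 at 0.140, Myh11 probe A at 0.003, Lmod1 probe B at 0.075, Pdgfra at -0.014, Krt5 at 0.178 and Gpm6a at 0.189. Under normexp they were Actg2 probe A at -0.035, Actg2 probe B at -0.003, Gli1 at 0.022 and Gpm6a at 0.005. Within slide 1 they were -0.002 and -0.038 for the probes of Actg2, -0.174 for Lmod1 probe A, -0.099 for Cspg4, 0.300 for Cdh1, 0.056 for Krt5 and 0.002 for Aard, and within slide 2 they were 0.018 for Lmod1 probe B, 0.026 for Des, 0.007 for Tpm1, -0.183 for Pax8 and 0.180 for Gpm6a. Gpm6a stood at 0.020 with slide as a block and at 0.049 with the last digit of the sire code. With quantile scaling Gli1 stood at 0.002, with array weights Lmod1 probe B at 0.008 and Gli1 at 0.004, and with the authors' values Gli1 at 0.002. Leaving out 1 array gave differences of -0.008 to 0.078 for Actg2 probe A, -0.021 to 0.063 for Actg2 probe B, -0.128 to 0.070 for Lmod1 probe B, -0.017 to 0.066 for Pdgfra, -0.054 to 0.047 for Gli1, -0.194 to 0.004 for Msln and -0.134 to 0.084 for Gpm6a.

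Correlations with Acta2 that changed sign were Mylk under normexp (0.341), with slide means (0.204) or group means removed (0.031), Myl9 under quantile scaling (-0.530), Des with median scaling (-0.101) and the authors' values (-0.024), and Lmod1 with slide means removed (-0.011). Without C1 and T5 they were Actg2 (-0.252), Cnn1 (-0.172), Tagln (-0.307), Smtn (-0.358) and Des (-0.559). Leaving out 1 array gave -0.440 to 0.549 for Tagln, -0.699 to 0.420 for Des and -0.365 to 0.300 for Mylk. The number of genes called with Acta2 was then 0 to 1 (Myh11, at 0.868, without C3 and Cnn1, at 0.878, without C4). The Acta2 difference between the slides lost its call with quantile scaling (-0.272), no filter (-0.355) and the authors' values (-0.317), and without C2, C4, C5 or any 1 of the T arrays; leaving out 1 array gave -0.396 to -0.282. Probes called between the slides then numbered 1277 to 2753, 1277 without C5, 1334 without T1 and 1410 without T2. The causes were not tested.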

Other observations

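The 2 levels of Lmod1 probe A were set against the 40 tested genes that lie closest to Lmod1 in the RefSeq gene table, 20 on each side, a look chosen after the data were seen. Of these, 3 (7.5%) had an r with probe A of at least 0.7 in size, beside 1.49% of the 11547 other genes. Shisa4, the first tested gene after Lmod1, had r = 0.73, Chit1 had -0.79 and Rabif -0.88. Rabif, a guanine nucleotide release factor, stood at -0.04, -0.20, 0.07, 0.13 and 0.14 on C1 to C5 and at -0.14, 0.11, -0.18, -0.18 and 0.25 on T1 to T5. Its highest arrays, T5, C5, C4 and T2, were among those with the low level of Lmod1 probe A. C1, also of the low level, lay at -0.04, below C3 of the high level at 0.07. The other probe of Rabif had r = -0.78 with it. Among the other nearby genes with a second probe, that probe and the one that stood for the gene had -0.88 and 0.06 for Cyb5r1. They had -0.80 and -0.50 for Lhx9, and 0.69 and 0.68 for Nr5a2. These are correlations over 10 arrays that share slides, given as a description.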
